A study of Sus scrofa with 16 samples.

Results

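The genes ATP2A2, PLN, RYR2, FKBP1B and ITPR1 encode a calcium pump, the pump's inhibitor, release channels and a protein that binds a release channel. The pump and the channels move calcium into and out of the sarcoplasmic reticulum, the internal calcium store of heart muscle. All probe sets that carry one of these 5 symbols in the platform annotation were taken, which gave 12 of the 23935 probe sets tested and 5 of the 6765 genes named on them: 4 for ATP2A2, 3 for RYR2, 2 each for PLN and FKBP1B, and 1 for ITPR1. The rule that picks probe sets uses the symbol and no measured value, though the genes themselves were chosen with earlier results of these data known. Of all probe sets, 0 listed a member beside another symbol. A probe set is a group of short DNA probes against a transcript, and its level is given here as a log2 signal. Probe sets of a gene are numbered from the brightest to the dimmest. Because probes differ in how strongly they bind, the level of a probe set ranks it against the table and does not measure the gene's abundance relative to another gene or probe set.

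Left ventricular tissue was sampled from 8 exercise-trained and 8 sedentary Yorkshire x Landrace pigs, each animal on its own array. Each group held 4 females and 4 neutered males. The animals were aged 2 to 3 months. They had followed the protocol for 4 to 5 weeks when the ventricle was sampled. The kind and amount of exercise are not given in the labels, and the series is titled as a study of physiological hypertrophy, the growth of the heart with training. The samples were crushed whole tissue, so fewer cells of a type and less RNA per cell cannot be told apart.

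At each heartbeat a small entry of calcium through the cell surface opens the ryanodine receptor RYR2, and the calcium released from the store starts contraction. Relaxation follows when SERCA2, the pump encoded by ATP2A2, returns calcium to the store. Phospholamban, encoded by PLN, holds the pump back until it is phosphorylated. FKBP1B encodes the small binding protein FKBP12.6, which attaches to RYR2. ITPR1 encodes an inositol trisphosphate receptor, a second kind of release channel that is best known from neurons and smooth muscle and is a minor one in ventricular muscle.

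The arrays resembled each other closely, with correlations of 0.988 to 0.994 between an array and the average of the rest. The labels name no batches. The arrays were split at the largest gap in the mean level of the bacterial poly-A control transcripts, a rule that always gives 2 groups. These groups are called batches here, with mean control levels of 7.63 on the 11 arrays of batch A and 5.99 on the 5 arrays of batch B. What sets them apart is not known. Exercised animals 7 and 8, both males, and sedentary animals 6, 7 and 8 made up batch B. The other 6 exercised and 5 sedentary animals were in batch A. Differences given below as within a batch are plain differences of group means, with no sex term. In batch B they set 2 exercised males against 2 sedentary males and 1 sedentary female, so sex is mixed into them. The limma fit of batch A alone averages the effect over the sexes, so its values differ from the plain ones. Actin's 3′ probe sets exceeded its 5′ ones, a measure of RNA length, by 2.63 log2 in batch A against 1.50 in batch B, and by 2.33 in exercised against 2.22 in sedentary animals (two-sided exact permutation test, p = 0.708). Of 13 cardiomyocyte markers, 12 were measured, and all lay at or above the 98.1 percentile of level. RYR2 and PLN are themselves 2 of those 12 markers. None of the 12 changed with training by limma at an adjusted p of 0.05. Their level, as a mean deviation from each gene's average, was 0.06 higher in exercised animals (two-sided exact permutation p = 0.0382, adjusted over 17 array measures 0.162). Without RYR2 and PLN it was 0.04 higher (exact permutation p = 0.15, adjusted 0.51). The part of this level in the members' values was not tested.

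Training changes that passed the test were found among the dim members and not among the bright ones. Of the 12 probe sets, 1 was higher in exercised animals and 2 were lower. The one that rose was RYR2 set 3, and those that fell were FKBP1B set 2 and the ITPR1 probe set. Of all probe sets tested, 13.4% passed the same test, 6.48% as higher and 6.88% as lower. All 3 were among the 4 members in the dimmest 40 percent of the array, and 0 of the 8 brighter members passed. Of all probe sets, 21.2% were called in that dimmest range, 8.15% above it and 4.69% above the 60th percentile. These shares were not compared by a test. In all 12 probe sets the range of the exercised animals overlapped that of the sedentary ones. Of all probe sets, 3.12% had ranges that did not overlap. With the array batch as a block in the fit 4 of the 12 passed, against 18.1% of all probe sets, and with the 11 arrays of batch A alone 0 of the 12 passed, against 10.3%.

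**Figure D1:**
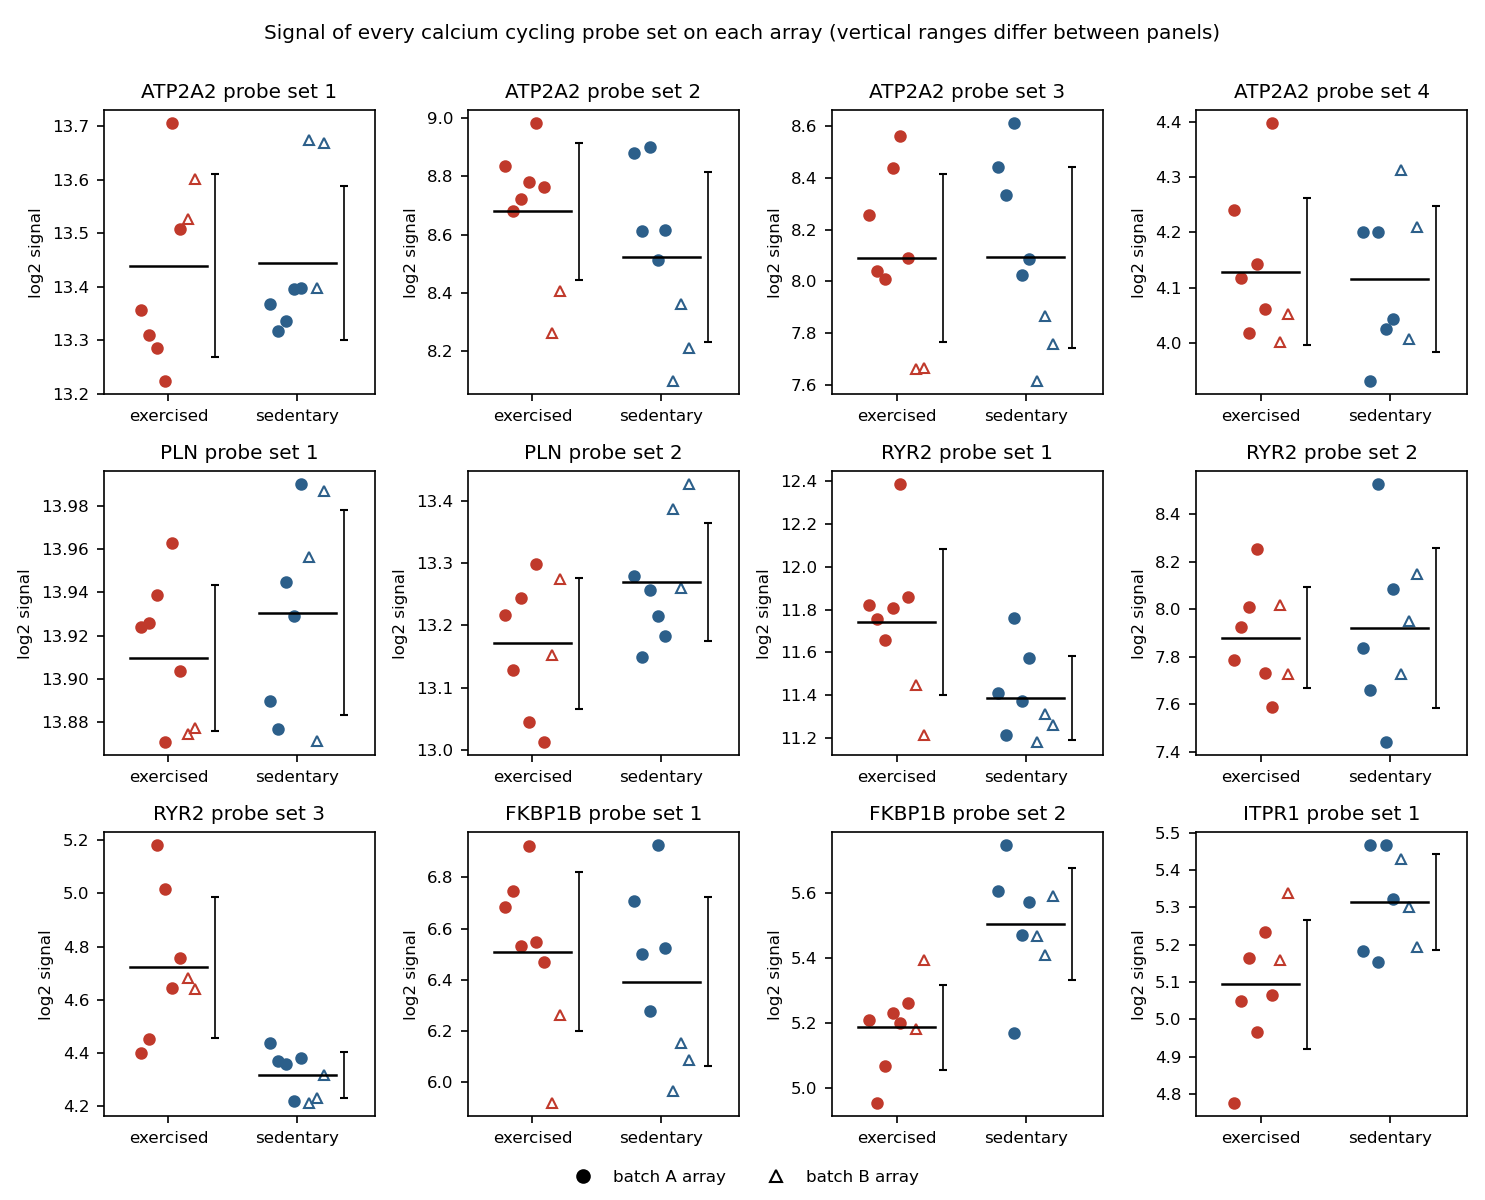
Log2 signal of each of the 12 probe sets in every animal, exercised on the left and sedentary on the right of each panel, with filled circles for batch A, open triangles for batch B, a line at the group mean and a bar of 1 SD to either side. Vertical ranges differ between panels. RYR2 set 3 lies higher in exercised animals, FKBP1B set 2 and ITPR1 lie lower, and the group means of ATP2A2 set 1 differ by −0.0046 and those of PLN set 1 by −0.02.

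RYR2, the release channel itself, had a bright, a middling and a dim probe set, at the 98.1, 75.7 and 24.7 percentiles of level. The brightest, Ssc.16180.1.S1_at, had a lowest, median and highest log2 signal of 11.21, 11.78 and 12.39 in exercised animals, against 11.18, 11.34 and 11.76 in sedentary animals. In 4 exercised animals the signal was above the highest sedentary one, and in 7 of 8 it was above the sedentary mean. Exercised animal 5 stood highest, and the lowest exercised values came from animals 7 and 8, which are the exercised animals of batch B. The means were 11.74 ± 0.34 in exercised and 11.38 ± 0.20 in sedentary animals (SD, n = 8 each), a difference of 0.36 log2 (SE 0.134, 95% interval 0.07 to 0.64) or 1.28-fold. This did not pass limma's test over the table (adjusted p = 0.092, unadjusted p = 0.0169), and 27.0% of all probe sets had an unadjusted p under 0.05.

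The call on that bright RYR2 set depended on the model that was fitted and, in 1 fit, on the array left out. The difference was 0.42 within batch A and 0.08 within batch B, and the set's signal averaged 0.41 log2 higher in batch A than in batch B. With the batch as a block in the fit the difference was 0.31 (SE 0.102) and passed, with limma's adjusted p at 0.0491. Of the 16 fits that left out an array, it passed in 1, that without exercised animal 8, at 0.44 (adjusted p = 0.0338). Without exercised animal 5 it was 0.24 and did not pass (adjusted p = 0.101). The highest adjusted p of those 16 fits was 0.164.

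RYR2 set 3, Ssc.16180.2.A1_at, was the dim one. Its lowest, median and highest signals were 4.40, 4.66 and 5.18 in exercised animals, against 4.21, 4.34 and 4.44 in sedentary animals. All 8 exercised animals were above the sedentary mean, and 7 were above the highest sedentary animal. The sedentary animals were packed closely, while exercised animals 3 and 4 stood above the rest of their group. The means were 4.72 ± 0.27 in exercised and 4.32 ± 0.087 in sedentary animals (SD, n = 8 each), a difference of 0.41 log2 (SE 0.0991, 95% interval 0.20 to 0.62) or 1.33-fold, and limma's adjusted p was 0.0132. The difference was 0.39 within batch A and 0.41 within batch B. It passed without any single array. In the fit of batch A alone, which averages over the sexes, it was 0.43 and did not pass (limma adjusted p = 0.0692).

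Between these lay RYR2 set 2, Ssc.16180.2.S1_at at the 75.7 percentile, which carries the same target sequence accession as set 3. Its lowest, median and highest signals were 7.59, 7.86 and 8.25 in exercised animals, against 7.44, 7.89 and 8.53 in sedentary animals. The exercised animals lay inside the sedentary range. The means were 7.88 ± 0.21 in exercised and 7.92 ± 0.34 in sedentary animals (SD, n = 8 each), a difference of −0.04 (SE 0.129, 95% interval −0.32 to 0.23, limma adjusted p = 0.881). Across the 16 arrays sets 2 and 3 correlated at 0.18 (0.23 in batch A, n = 11, and −0.03 in batch B, n = 5). The identifiers of sets 2 and 3 differ only in S1 against A1. The strand that each of them reads was not checked, so whether set 3 reads the RYR2 transcript is not known. FKBP1B set 1 and ATP2A2 set 3 also have A1 in their identifiers, and their strands were not checked either.

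FKBP1B, which encodes the RYR2-binding protein FKBP12.6, had a middling and a dim probe set. The dim one, set 2 or Ssc.4389.2.S1_at at the 36.8 percentile, had a lowest, median and highest signal of 4.95, 5.20 and 5.39 in exercised animals, against 5.17, 5.52 and 5.75 in sedentary animals. All 8 exercised animals were below the sedentary mean, and 7 of the 8 sedentary animals were above the highest exercised one. Sedentary animal 3 was the exception. The means were 5.19 ± 0.13 in exercised and 5.50 ± 0.17 in sedentary animals (SD, n = 8 each), a difference of −0.32 log2 (SE 0.0745, 95% interval −0.48 to −0.16), with limma's adjusted p at 0.0107. It was −0.36 within batch A and −0.20 within batch B. It passed without any single array. In the fit of batch A alone, which averages over the sexes, it was −0.34 and did not pass (limma adjusted p = 0.0532).

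The brighter FKBP1B set 1, Ssc.4389.1.A1_at at the 53.2 percentile, had a lowest, median and highest signal of 5.92, 6.54 and 6.92 in exercised animals, against 5.97, 6.39 and 6.93 in sedentary animals. The groups covered nearly the same range, and in both the animals of batch B lay lowest. The means were 6.51 ± 0.31 in exercised and 6.39 ± 0.33 in sedentary animals (SD, n = 8 each), a difference of 0.12 (SE 0.128, 95% interval −0.16 to 0.39, limma adjusted p = 0.624). Its signal averaged 0.55 log2 higher in batch A than in batch B, and within the batches the training difference was 0.06 and 0.02.

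ITPR1 had a single probe set, Ssc.16182.1.S1_at at the 34.8 percentile. Its lowest, median and highest signals were 4.77, 5.11 and 5.34 in exercised animals, against 5.15, 5.31 and 5.47 in sedentary animals. In 4 exercised animals, all females, the signal was below the lowest sedentary one, and in 7 of 8 it was below the sedentary mean. The means were 5.09 ± 0.17 in exercised and 5.31 ± 0.13 in sedentary animals (SD, n = 8 each), a difference of −0.22 log2 (SE 0.0687, 95% interval −0.37 to −0.07), with limma's adjusted p at 0.045. The value was close to the threshold. It was −0.28 within batch A and −0.06 within batch B, and it passed in 5 of the 16 fits that left out an array, those without exercised animal 6 or 8 or sedentary animal 1, 3 or 8. Over those 16 fits the difference ran from −0.25 to −0.19 and the adjusted p from 0.0344 to 0.0933.

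ITPR1 is also made by smooth muscle and endothelial cells, which whole ventricle contains. Of 6 smooth muscle and pericyte markers 5 were measured, and of 6 endothelial markers all 6, and 0 of these 11 changed. The summed smooth muscle level, as a mean deviation from each gene's average, ran from −0.24 to 0.42 in exercised and from −0.35 to 0.41 in sedentary animals (difference −0.05, two-sided exact permutation p = 0.66). The endothelial level ran from −0.29 to 0.24 in exercised and from −0.14 to 0.13 in sedentary animals (difference −0.04, exact permutation p = 0.63). SNAP25, 1 of 2 neuron markers listed and the only one measured, lay at the 12.9 percentile, and its level ran from −0.21 to 0.03 in exercised and from −0.16 to 0.36 in sedentary animals (difference −0.17, exact permutation p = 0.0272, adjusted over 17 array measures 0.162). The part of these cells in the ITPR1 value was not tested.

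The dim members were set beside 64 control probe sets for reporter genes, whose transcripts are foreign to the pig. The mean levels of these controls ran from 3.00 to 13.66 with a median of 3.75, so not all of them were dim. The ITPR1 set and FKBP1B set 2 were each brighter than 61 of those 64, RYR2 set 3 than 54, and ATP2A2 set 4 than 47. When the control probe sets were kept in the fit, 9 of the 64 reporter sets passed the training test, or 14.1%, with 5 higher and 4 lower in exercised animals. Their differences reached 0.42 upward and −0.39 downward. The 3 changes among the calcium cycling probe sets, from 0.22 to 0.41 log2 in size, fall within that span. The mean reporter level was 4.01 in exercised and 4.02 in sedentary animals (two-sided exact permutation p = 0.783).

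ATP2A2, the SERCA2 pump, showed no training difference that passed in any of its 4 probe sets. The brightest, Ssc.22641.2.S1_a_at at the 99.7 percentile of level, had a lowest, median and highest signal of 13.22, 13.43 and 13.71 in exercised animals, against 13.32, 13.40 and 13.67 in sedentary animals. The groups lay on top of each other. The means were 13.44 ± 0.17 in exercised and 13.44 ± 0.14 in sedentary animals (SD, n = 8 each), a difference of −0.0046 log2 (SE 0.0787, limma adjusted p = 0.981). The 95% interval was −0.17 to 0.16.

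The other 3 ATP2A2 sets differed by little as well. Set 2, Ssc.22641.1.S1_at at the 84.0 percentile, ran from 8.26 to 8.98 with a median of 8.74 in exercised and from 8.10 to 8.90 with a median of 8.56 in sedentary animals, a difference of 0.16 (SE 0.128, 95% interval −0.12 to 0.43, limma adjusted p = 0.489). Set 3, Ssc.29181.1.A1_s_at at the 78.3 percentile, ran from 7.66 to 8.56 with a median of 8.07 in exercised and from 7.61 to 8.61 with a median of 8.06 in sedentary animals, a difference of −0.0022 (SE 0.159, 95% interval −0.34 to 0.34, adjusted p = 0.995). In both sets the batches differed more than the groups did, with batch A above batch B by 0.48 in set 2 and by 0.55 in set 3, while in set 1 batch A was lower, at −0.19. Set 4, Ssc.22641.3.S1_at at the 17.8 percentile, ran from 4.00 to 4.40 with a median of 4.09 in exercised and from 3.93 to 4.31 with a median of 4.12 in sedentary animals, a difference of 0.01 (SE 0.0662, adjusted p = 0.932).

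PLN, the brake on that pump, was the brightest member. Its set 1, Ssc.5227.1.S1_at at the 99.9 percentile, had a lowest, median and highest signal of 13.87, 13.91 and 13.96 in exercised animals, against 13.87, 13.94 and 13.99 in sedentary animals. No other member varied so little within the groups. The means were 13.91 ± 0.034 in exercised and 13.93 ± 0.047 in sedentary animals (SD, n = 8 each), a difference of −0.02 log2 (SE 0.045, 95% interval −0.12 to 0.07, limma adjusted p = 0.82). The highest value in the table was 14.86, and how far a signal near that top can still follow the transcript was not tested.

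PLN set 2, Ssc.5227.1.S2_at at the 99.6 percentile, ran from 13.01 to 13.30 with a median of 13.18 in exercised and from 13.15 to 13.43 with a median of 13.26 in sedentary animals. In 6 of 8 exercised animals it was below the sedentary mean. The means were 13.17 ± 0.11 in exercised and 13.27 ± 0.095 in sedentary animals (SD, n = 8 each), a difference of −0.10 log2 (SE 0.0573, 95% interval −0.22 to 0.02, limma adjusted p = 0.297). Within batch A it was −0.06 and within batch B −0.14. Of the 4 brightest member sets, from ATP2A2, PLN and RYR2, only RYR2 set 1 had an interval that left out 0, and it did not pass the adjusted test.

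**Figure D2:**
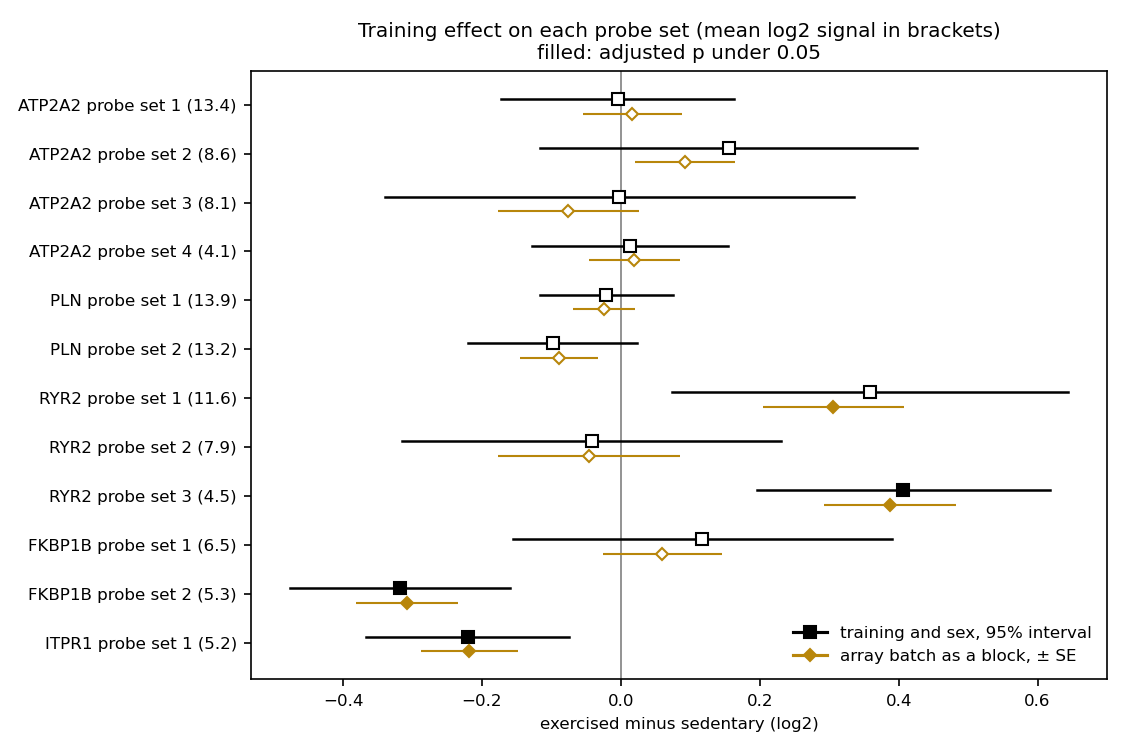
Training effect on each of the 12 probe sets in log2, exercised minus sedentary, as squares with the 95% interval, and as diamonds with 1 SE when the array batch was a block in the fit; filled marks had an adjusted p under 0.05 and brackets give the mean log2 signal. RYR2 set 3, FKBP1B set 2 and ITPR1 are filled both ways, and RYR2 set 1 is filled with the block alone.

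Bright and dim probe sets of a gene were then compared directly, by fitting the per-array difference between a dimmer set and the brightest set of its gene for 3304 such pairs of 2261 genes. Of the 7 pairs among the calcium cycling genes, 0 passed limma's test at an adjusted p of 0.05, against 12.5% of all pairs, and 2 had an unadjusted p under 0.05, against 28.0% of all pairs. FKBP1B came closest. Its set 2 minus set 1 was −1.32 ± 0.37 in exercised and −0.89 ± 0.33 in sedentary animals (SD, n = 8 each), a shift of −0.43 (SE 0.152, 95% interval −0.76 to −0.11, adjusted p = 0.0726). That shift passed with the array batch as a block, at −0.37 (adjusted p = 0.0249, with 19.4% of all pairs called), and without sedentary animal 4, at −0.52 (adjusted p = 0.0323).

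For RYR2, set 2 minus set 1 was −3.86 ± 0.43 in exercised and −3.46 ± 0.25 in sedentary animals (SD, n = 8 each), a shift of −0.40 (SE 0.168, 95% interval −0.76 to −0.05, limma adjusted p = 0.13). Against the mean of the gene's other sets, in place of the brightest alone, the shift of set 2 was −0.42 and passed (adjusted p = 0.0342, with 14.5% of all pairs called). Without exercised animal 5 the shift against set 1 was −0.26. Set 3 minus set 1 was −7.02 ± 0.45 in exercised and −7.07 ± 0.18 in sedentary animals, a shift of 0.05 (SE 0.157, 95% interval −0.28 to 0.38, adjusted p = 0.887). Over all arrays the training effect was 0.41 in RYR2 set 3, 0.36 in set 1 and −0.04 in set 2. For sets 3 and 1 it was 0.39 and 0.42 within batch A, but 0.41 and 0.08 within batch B. The interval of set 3 minus set 1, −0.28 to 0.38, is wide, so effects of like size are not shown.

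In ATP2A2 the shift against set 1 was 0.16 for set 2 (95% interval −0.19 to 0.51), 0.0023 for set 3 (95% interval −0.41 to 0.41) and 0.02 for set 4 (95% interval −0.14 to 0.18). In PLN it was −0.08 for set 2 (95% interval −0.22 to 0.06). None of these 4 intervals left out 0, and the adjusted p ran from 0.499 for PLN to 0.996 for ATP2A2 set 3 by limma. When all probe sets of a gene were averaged on each array, the training effect was 0.24 for RYR2, −0.22 for ITPR1, −0.10 for FKBP1B, −0.06 for PLN and 0.04 for ATP2A2. None of these 5 passed, with limma's adjusted p at 0.0564 for ITPR1, 0.106 for RYR2 and higher for the rest, against 8.56% of all genes called.

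Probe sets of a gene also differed in how they moved from animal to animal. Over the 16 arrays ATP2A2 sets 2 and 3 correlated at 0.91, but each ran against set 1, at −0.46 and −0.45. Within batch A the correlation of set 1 with set 2 was 0.39 (n = 11) and within batch B it was −0.62 (n = 5). The PLN sets correlated at 0.50, RYR2 sets 1 and 3 at 0.43, and the FKBP1B sets at −0.13. These points share their arrays and the array batches, and the values are descriptions only.

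**Figure D3:**
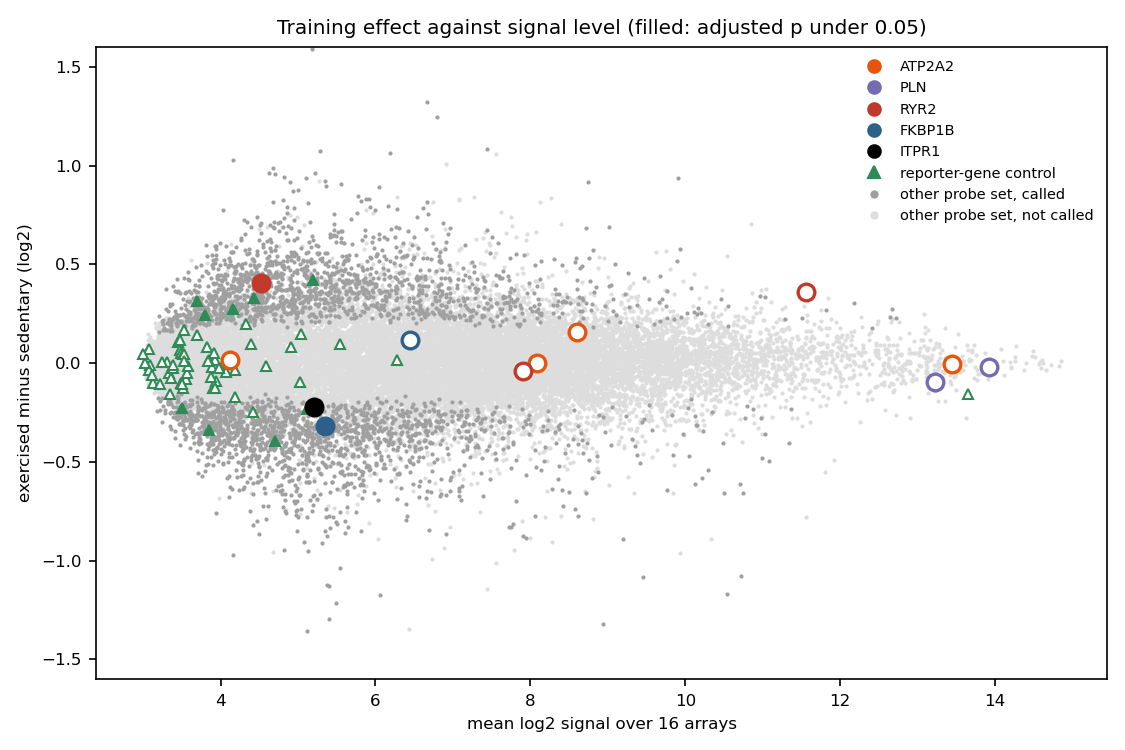
Training effect in log2, exercised minus sedentary, against mean log2 signal over the 16 arrays, with circles for the 12 probe sets, triangles for the 64 reporter-gene controls and small grey points for all other probe sets, of which 3 lie outside the axes; filled or darker marks had an adjusted p under 0.05. The 3 filled circles lie among the dim probe sets, and filled triangles lie at similar heights.

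Each sex was represented by 4 animals in each group. For ITPR1 the training difference was −0.36 in females (4.96 in exercised and 5.33 in sedentary) and −0.08 in males (5.22 in exercised and 5.30 in sedentary). The test of the difference between the sexes gave −0.29 (SE 0.137, unadjusted p = 0.0539) and did not pass after adjustment. The batches are unevenly spread over the sexes, with 0 exercised females in batch B. For FKBP1B set 2 the training difference was −0.44 in females and −0.19 in males, with a difference of −0.25 between them (SE 0.149, unadjusted p = 0.12). For ATP2A2 set 4 it was 0.13 in females and −0.11 in males, with a difference of 0.24 (SE 0.132, unadjusted p = 0.0883). In limma's interaction test 0 of the 12 members and 0 of all probe sets passed after adjustment, and 0 of the 12 and 2.59% of all probe sets had an unadjusted p under 0.05. On data simulated with 200 changed probe sets, independent noise and no batches, that test found 9% of differences of 0.5 log2. The share it would find in the real data was not measured. The lack of calls therefore does not show that the sexes responded alike.

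Other genes of calcium handling were taken from lists of 67 genes, of which 44 were measured by 73 probe sets. With each gene read by its brightest probe set, 0 were higher and 2 were lower in exercised animals, and 42 did not pass, against 10.0% of the brightest sets of all genes called. The median training effect over the 44 was 0.0085 log2, against 0.0126 over every gene. Over all 73 probe sets, 1 was higher and 6 were lower, where 5.54% and 5.90% of all probe sets with a single gene symbol were. Of the lists, the release channel paralogs (3 measured genes) and the kinases and phosphatases (15 genes) each had 1 brightest set that fell. The release channel partners (6 genes), the junctional and luminal store proteins (5), the pump paralogs and regulators (5), the sarcolemmal entry and exit genes (6) and the mitochondrial calcium genes (4) had 0.

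The 2 genes whose brightest set fell were RYR1 and PPP2CA. RYR1 encodes the ryanodine receptor of skeletal muscle. Its only set, at the 20.8 percentile, ran from 3.74 to 4.24 with a median of 4.00 in exercised animals, against 4.36 to 4.81 with a median of 4.53 in sedentary animals, so the groups did not overlap. The difference was −0.54 log2 (SE 0.0811, limma adjusted p = 0.000503), with −0.51 within batch A and −0.50 within batch B, and the set was brighter than 50 of the 64 reporter sets. Of 6 skeletal muscle markers, TNNI2, TNNT3 and MYH2 were measured, between the 14.2 and 37.1 percentiles, and 0 of the 3 passed. Their mean level ran from −0.15 to 0.12 in exercised and from −0.07 to 0.22 in sedentary animals (difference −0.10, two-sided exact permutation p = 0.0326, adjusted over 17 array measures 0.162). Their part in the RYR1 value was not tested.

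RYR3, another ryanodine receptor with low levels in most tissues, had 4 dim sets. Of its dimmer ones 2 were lower in exercised animals, with differences of −0.32 (limma adjusted p = 0.00666) and −0.37 (adjusted p = 0.00779), while its brightest set differed by −0.09 (adjusted p = 0.396) and the remaining one by 0.21 (adjusted p = 0.0778). Its 4 sets thus had differences of both signs. The set at −0.32 lay at the 11.5 percentile of level and was brighter than 32 of the 64 reporter sets. The set at −0.37 lay at the 17.0 percentile and was brighter than 47 of them. ITPR3, a paralog of ITPR1, differed by −0.09 (adjusted p = 0.407).

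PPP2CA encodes a catalytic subunit of protein phosphatase 2A, which removes phosphate from phospholamban and RYR2 among many other proteins. Its bright set, at the 96.8 percentile, ran from 10.52 to 10.81 with a median of 10.69 in exercised animals, against 10.70 to 11.10 with a median of 10.93 in sedentary animals. All 8 exercised animals were below the sedentary mean. The difference was −0.22 log2 (SE 0.0689, limma adjusted p = 0.0456), with −0.25 within batch A and −0.19 within batch B, and it passed in 3 of the 16 fits that left out an array. Its dimmer set fell by 0.56 on the log2 scale (adjusted p = 0.0225) and passed in all 16 of those fits.

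Among the partners of the release channel, FKBP1A, which encodes the FKBP1B relative FKBP12, averaged 11.12 ± 0.31 in exercised and 10.84 ± 0.093 in sedentary animals (SD, n = 8 each). The difference of 0.28 (SE 0.117) did not pass limma's test (adjusted p = 0.135), with 7 of 8 exercised animals above the sedentary mean. CALM3, a calmodulin gene, had 6 sets, of which 1 fell with a difference of −0.26 (limma adjusted p = 0.0137) and 1 rose by 0.25 (adjusted p = 0.0294), while the brightest differed by 0.0004 (adjusted p = 0.998). CASQ2, the calcium-binding protein inside the store, differed by −0.01 (adjusted p = 0.952). SLN, a second inhibitor of the pump that is mainly atrial in the heart, differed by −0.36 (adjusted p = 0.287). Of the 3 atrial markers listed, SLN and NPPA, the atrial natriuretic peptide, were measured, and NPPA fell, with a difference of −0.78 log2 between exercised and sedentary animals (limma adjusted p = 0.0457). That NPPA value passed in 3 of the 16 fits that left out an array, and in batch A alone it was −0.33 (adjusted p = 0.472). The mean level of both ran from −0.97 to 0.33 in exercised and from −0.33 to 0.55 in sedentary animals (difference −0.57, two-sided exact permutation p = 0.00948, adjusted over 17 array measures 0.161), and its part in the SLN value was not tested. The sodium-calcium exchanger at the cell surface, SLC8A1, differed by 0.11 (adjusted p = 0.637). CAMK2D, a kinase that acts on the channel and on phospholamban, differed by −0.15 (adjusted p = 0.262), CALR, a calcium-binding protein of the endoplasmic reticulum, by −0.14 (adjusted p = 0.324), and ATP2A1, the pump of fast skeletal muscle, by 0.16 (adjusted p = 0.167). HRC, a calcium-binding protein of the store, and S100A1, a calcium sensor that binds the channel, had wide standard errors, with differences of −0.20 (adjusted p = 0.722) and −0.09 (adjusted p = 0.886). TRDN, JPH2, ITPR2 and CACNA1C were listed and are not analysed here.

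**Figure D4:**
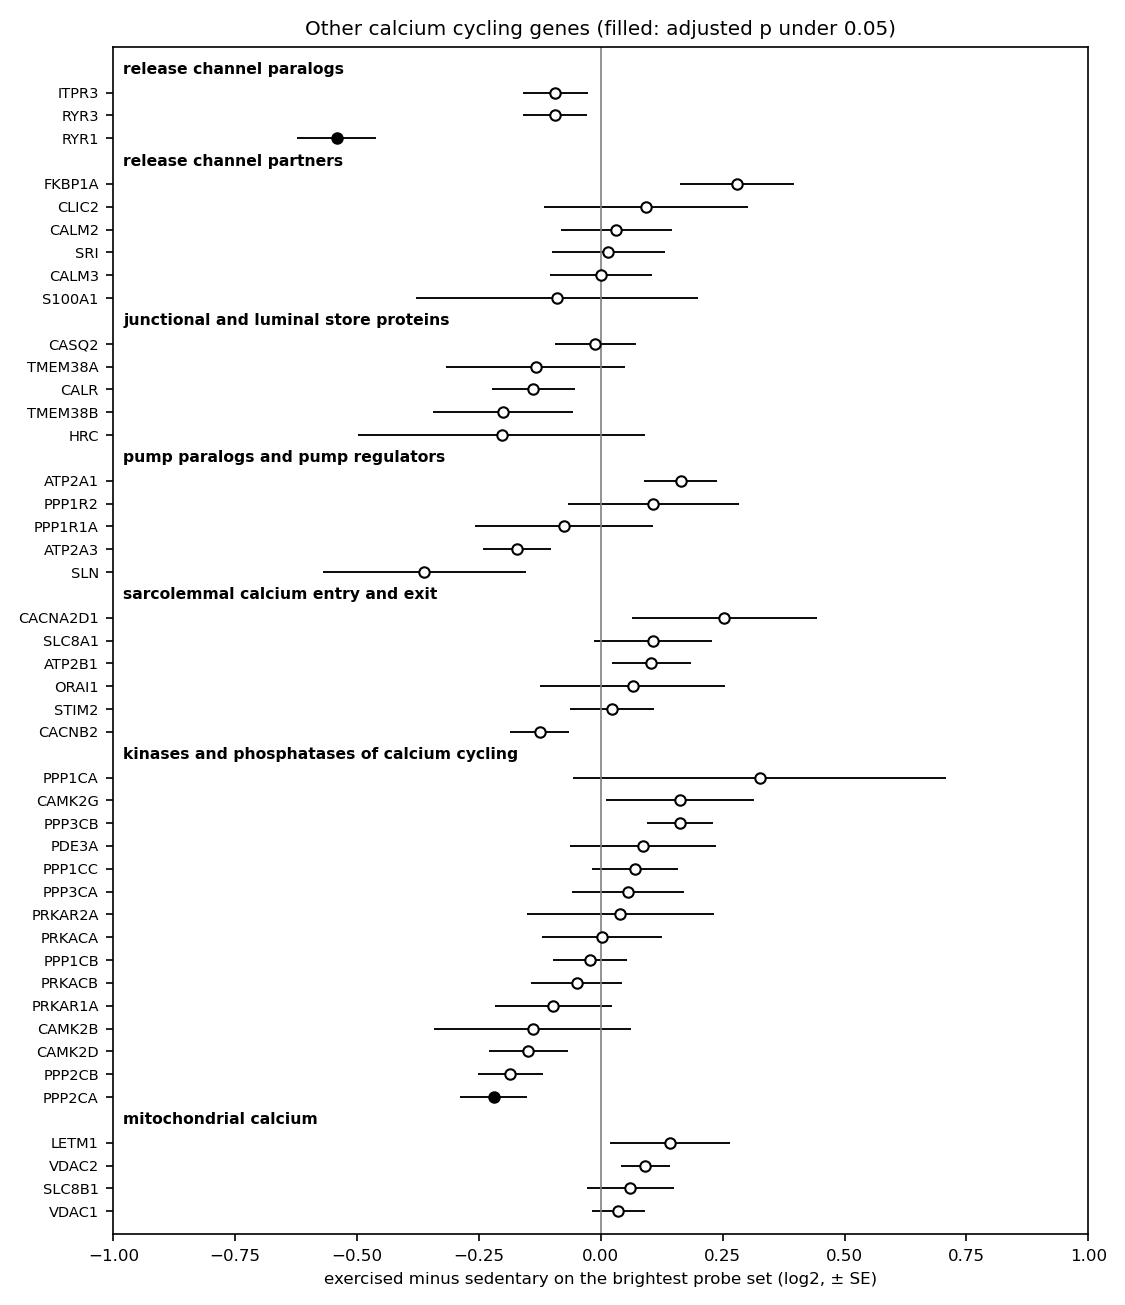
Training effect in log2, exercised minus sedentary, on the brightest probe set of each of the 44 measured calcium handling genes, grouped by list, with bars of 1 SE and filled points for an adjusted p under 0.05 by limma. RYR1 at −0.54 and PPP2CA at −0.22 are the filled points, and the median over the 44 is 0.0085.

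For each of the 5 genes the genes most like its brightest probe set were looked up among 4316 or fewer genes, by Pearson correlation over the 16 arrays. ATP2A2 set 1 was most like ACTC1, cardiac actin, at 0.94 (0.93 in batch A, n = 11, and 0.88 in batch B, n = 5). RYR2 set 1 was most like MARK3 at 0.88 and CKMT2, the mitochondrial creatine kinase of muscle, at 0.86, and within batch B these were 0.44 and 0.87. FKBP1B set 1 was most like USP16 at 0.92 and TGFBR1 at 0.92, and the value for TGFBR1 was 0.08 within batch B. PLN set 1 was most like YLPM1 at 0.74, and ITPR1 was most like LMAN2 at 0.75, where the value within batch B was 0.10. The arrays share their batches, and these values are descriptions with no test.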

How the data were processed

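Total RNA from crushed frozen ventricle was labelled with biotin and read on an Affymetrix porcine array, per the labels' protocols. The authors deposited log2 signals for each probe set. The sources used here do not give how they were summarised and normalized. They ran from 2.87 to 14.86, with array medians from 6.236 to 6.242, and were used without further scaling. Of 24123 probe sets, 188 controls were set aside. Symbols came from the platform annotation, and all 5 member genes matched RefSeq by Entrez identifier. The number of arrays limits the precision.

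With limma 3.58.1 under R 4.3.3, lmFit and eBayes estimated 1 mean per training group and sex over the 16 arrays, with 12 residual degrees of freedom. Tested were the training effect averaged over females and males, its difference between them, and the training effect on a dimmer minus the brightest probe set of a gene. All tests were two-sided. The Benjamini-Hochberg method was applied over all probe sets, or all pairs, at a threshold of 0.05. Single array measures were compared by exact permutation over 12870 assignments.

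The members, gene lists and rules were chosen with earlier results of these data known. Named are all member probe sets, pathway genes with a probe set that passed, some cardiac calcium genes always, and the genes most like each member. The labels do not say that animals with the same number are related. Deviations of same-numbered animals from the means of their training group and sex correlated at −0.03 to 0.39. The values were 0.33, 0.24, 0.23, 0.26 and 0.39 for numbers 3, 5, 6, 7 and 8. They were −0.03, 0.06 and 0.09 for numbers 1, 2 and 4. As the values were not above 0.1 for every number, the numbers were not used as pairs in the reported fit. Alternatives were other scaling, level filters, eBayes settings, array weights, batch and replicate blocks, batch A alone, no sex term, gene means and leaving out each array. Keeping the controls in the fit was chosen after seeing the data. The simulated data had 200 changed probe sets, independent noise and no batches. In them 66% of training effects of 0.5 log2 and 96% of effects of 1 log2 passed, while false ones made up 8.475% of the calls. For pairs these shares were 76%, 99% and 3.846%, and 9.589% of interaction calls were false.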

Additional observations from a re-analysis of the deposited data

How the results depend on the processing

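Of the 12 member probe sets, 3 passed in the reported fit, 0 in batch A alone, and 0 when only probe sets above the 40th or 60th percentile of level were tested, where all 3 are removed. Over all probe sets 3197 passed, against 631 above the 40th percentile, 77 above the 60th and 579 as gene means. Leaving out each array in turn gave 2513 to 3108 of all probe sets and 2 to 4 members. For pairs, 412 passed, against 110 and 27 above the same percentiles and 641 with a batch block. The members' pairs, 0 in the reported fit, were 1 with the batch block, the replicate block (15.0% of all pairs) or the mean of the other sets as reference (14.5%), and 0 to 1 when an array was left out, with 318 to 412 of all pairs. ITPR1 did not pass with a trended and robust eBayes (limma adjusted p = 0.0514) or without a sex term (0.0719). PPP2CA's bright set did not pass after quantile normalization (0.0535), above the 40th (0.102) or 60th (0.171) percentile, or with the replicate block (0.0514). NPPA did not pass above the 40th (0.0843) or 60th (0.157) percentile or with the replicate block (0.0865). The CALM3 set that rose did not pass in batch A alone (0.0905) or without a sex term (0.0639), and passed in 7 of the 16 fits without an array. The replicate block gave 3528 of all probe sets and 4 members, RYR2 set 1 among them at 0.36 (0.0366), and FKBP1B's pair at −0.43 (0.0225).

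Signs turned only where the reported value had not passed. With quantile normalization the training effect was 0.0152 for ATP2A2 set 1 and 0.0057 for PLN set 1. With array weights it was 0.0271 for ATP2A2 set 1, 0.0061 for RYR2 set 2, 0.0173 for CASQ2 and 0.0249 for S100A1. With the batch block it was 0.0167 for ATP2A2 set 1, 0.0086 for CASQ2 and 0.0133 for S100A1, and in batch A alone 0.059, 0.0018 and 0.3103 for the same genes and 0.1225 for HRC. The ATP2A2 set 3 pair was −0.0177 after quantile normalization, −0.14 with weights, −0.0922 with the batch block, −0.1215 in batch A alone and −0.0569 against the other sets' mean. The ATP2A2 set 4 pair was −0.0017, −0.0135 and −0.0365 after quantile normalization, in batch A alone and against that mean. Without 1 array at a time, training effects ran from −0.0339 to 0.0362 for ATP2A2 set 1, −0.0998 to 0.0922 for set 3, −0.0159 to 0.0418 for set 4, −0.1027 to 0.0336 for RYR2 set 2, −0.0456 to 0.0305 for CASQ2, −0.3242 to 0.0135 for HRC and −0.275 to 0.0944 for S100A1. Pairs ran from −0.1067 to 0.1161 for ATP2A2 set 3, −0.0205 to 0.0475 for set 4 and −0.021 to 0.1903 for RYR2 set 3. The causes were not tested.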
